A study of Homo sapiens with 4 samples.

Results

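The zinc finger genes of human chromosome 19 were compared between SAS cells, an oral squamous carcinoma line, carrying a control shRNA and SAS cells in which STAU1 had been knocked down. The members were the protein-coding genes on chromosome 19 whose symbol is ZNF followed by a number, with an optional letter. There were 247 such genes among the 67008 rows of the count table, including ZNF875, which older annotation calls HKR1. Ctrl was 2 libraries from cells infected with a virus delivering shLuc, an shRNA against luciferase. The group shSTAU1 was 2 libraries from cells infected with a virus delivering an shRNA against STAU1, a protein that binds double-stranded RNA. The genotype of all 4 libraries was given as wild type, and each group rested on 1 shRNA. The labels also named C3H 10T1/2, a mouse fibroblast line, as the cell line, while they gave the organism as human, the cell type as an oral cancer line and SAS in the growth protocol. Nothing in the labels said whether the libraries of a group came from separate cultures, so the p-values measure the spread between these libraries only.

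C2H2 zinc finger proteins bind DNA through tandem fingers, each folded around a zinc ion, that are joined by short conserved linkers. Many of them carry a KRAB domain, which recruits the corepressor TRIM28 (KAP1). TRIM28 in turn brings in the histone methyltransferase SETDB1, HP1 proteins and histone deacetylases, and the best known targets are retrotransposons and other repeats. The genes arose by tandem duplication, and on chromosome 19 they lie in long clusters of close relatives.

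The linker between adjacent fingers is shown because it carries the 7-base word AGAGAAA, whose copies in the coding sequence are set against the fold changes further on. The linker is known as a well conserved stretch of these genes. Each line gives 30 bases of the coding strand around the first in-frame linker of 10 of the 11 genes called lower in shSTAU1 and of ZNF91, the most abundant member. The capitals mark the word, and a line without capitals does not hold it there.
ZNF430: agaattcatactggAGAGAAAccctacaaa
ZNF714: acaagacatactggAGAGAAAcctttcaaa
ZNF431: agaattcatactggAGAGAAAcccttcaaa
ZNF708: ataattcatactggagaaaaaccctacaaa
ZNF91: aggatacacactggAGAGAAAccctacaaa
ZNF254: ataattcatactggAGAGAAAccttacaag
ZNF221: agagtccatactggAGAGAAAccattcaaa
ZNF180: agaactcacacaggggagaaaccttatgaa
ZNF761: agacttcatactggAGAGAAAccttacaaa
ZNF805: atggtccacactggggagaagccctataag
ZNF264: cagactcataccggggagaagccctatgag
All 11 were read from GRCh38 chromosome 19 and lie in the last exon of the transcript used. The linker of ZNF714 is at chr19:21117073-21117102 on the plus strand, in exon 5 of 5. That of ZNF91 is at chr19:23362094-23362123 on the minus strand, in exon 4 of 4. ZNF708 and ZNF180 lack the word in the linker shown and hold 10 and 6 copies elsewhere in the coding sequence. ZNF805 and ZNF264, neighbours near the end of the long arm, spell the linker with other codons and held the word 1 time each in the whole coding sequence, against 10 copies in ZNF714 and 28 in ZNF91.

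The libraries held 33009118 and 32206655 counts in Ctrl and 35180221 and 36301574 counts in shSTAU1. STAU1 itself was at 248.7 and 251.0 CPM (counts per 1000000 counts after TMM scaling) in Ctrl and at 41.62 and 41.51 in shSTAU1. Its log2 fold change of shSTAU1 over Ctrl was -2.59 (SE 0.13, adjusted p = 0.00103, edgeR quasi-likelihood test with Benjamini-Hochberg adjustment over 14303 genes), which is 16.6% of the control level. The fold was the same without Ctrl replicate 1 (-2.60), but its adjusted p was then 0.490.

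The label of the cells was set against marker genes. All 9 markers of squamous epithelium used here passed the filter on low counts, with KRT5, a basal keratin, the most abundant, and their summed level was 8368 and 7931 CPM in Ctrl and 12350 and 9485 in shSTAU1. KRT5 and SFN were called higher. Of 10 fibroblast markers 5 passed, THY1 and POSTN had no count, and the sum was 19.8 and 24.8 CPM in Ctrl and 12.6 and 11.5 in shSTAU1. COL1A1, the most abundant of these, was called lower. COL1A2 went the other way, with a log2 fold change of 1.01, and was not called. Leukocyte markers passed for 1 of 5 genes (CD14 the most abundant, CD68 without a count) and endothelial markers for 2 of 4 (VWF the most abundant). The part of these differences in the results on zinc finger genes was not tested, and in bulk libraries fewer cells of a type and less RNA per cell cannot be told apart.

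A minority of the zinc finger genes of chromosome 19 passed the test, and those that did were lower in shSTAU1. Of the 247 genes, 217 had at least 1 read and 166 passed the filter and were tested. Among the 81 others, 30 had no read in any library, and none had a mean over 8.75 reads. A total of 11 genes were called lower at an adjusted p under 0.05, which is 6.63% of those tested, beside 1.48% of all 14303 tested genes called lower and 2.6% called in either direction. No member was called higher by edgeR over all 4 libraries, beside 1.13% of all tested genes, nor by DESeq2 or limma-voom, although edgeR with the replicate number as a block called 4, while 2 members (ZNF584 and ZNF358) were higher at an unadjusted p under 0.05 and 42 were lower; the shares of all tested genes were 12.9% higher and 11.6% lower. The log2 fold change was below 0 in 127 of the 166, or 76.5%, beside 49.6% of all tested genes, and above 0 in 39.

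The calls depended on single libraries. The same test found 0 members lower without Ctrl replicate 1, 1 without Ctrl replicate 2, 40 without shSTAU1 replicate 1 and 38 without shSTAU1 replicate 2, and the last 2 fits also called 1 and 3 members higher, with 1 residual degree of freedom in each of these fits. Over all genes the same 4 fits called 0, 64, 2780 and 2203, so the number of members called moved with the number of all genes called.

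The summed level of the group was lower in both shSTAU1 libraries. The summed level of the 247 genes was 6341 and 6689 CPM in Ctrl and 4751 and 4672 CPM in shSTAU1. They took 0.646% and 0.680% of the counts in Ctrl and 0.470% and 0.455% in shSTAU1, so the groups did not overlap. The median log2 fold change of the tested members was -0.24, with quartiles of -0.55 and -0.01, and the median over all tested genes was 0.0059. In 70 members both shSTAU1 libraries were below both Ctrl libraries, in 11 both were above, and in 85 the groups overlapped. That is 42.2% of the tested members for the lower side, beside 28.0% of all tested genes, and 28.5% of all tested genes were apart on the higher side.

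Relatives elsewhere in the genome had a median close to that of the members, and other genes of chromosome 19 had medians above 0. Of 263 protein-coding ZNF-number genes on other chromosomes, 207 were tested. Of these 207, 17 were called lower (8.21%, beside 6.63% of the members) and 152 had a negative log2 fold change (73.4%, beside 76.5%). Both shSTAU1 libraries were below both Ctrl libraries in 50.2% of them, beside 42.2% of the members. Their median was -0.25, or -0.14 with offsets that remove each library's trend with transcript length and GC content, against -0.20 for the members in that fit. Of 1223 other protein-coding genes on chromosome 19, 637 were tested, 2 were called lower and 11 higher, and the median was 0.18. The 107 other protein-coding genes inside the cluster spans gave 28 tested genes with a median of 0.13. They include zinc finger genes of other symbols, and the 72 that hold neither a finger nor a KRAB codon pattern, described below, gave 23 tested genes with a median of 0.16, a split chosen after the data were seen. PLAUR, the urokinase receptor gene, was called lower among these, at 21.7 and 16.7 CPM in Ctrl and 9.42 and 9.06 in shSTAU1 (log2 fold change -1.06, SE 0.21, adjusted p = 0.0461 by edgeR). The median of all 28 turned to -0.06 without shSTAU1 replicate 1, and to -0.10 with no filter on low counts. Among 16 chromosome 19 genes of the ZFP, ZSCAN, ZIM, ZIK and PEG3 type, which the choice by symbol leaves out, 5 were tested and all 5 had negative log2 fold changes, with a median of -0.34. Of the 16 genes, 12 lie inside the cluster spans and are also among the 107. ZFP36, 1 of the 5, is an RNA-binding protein of another finger type.

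**Figure D1:**
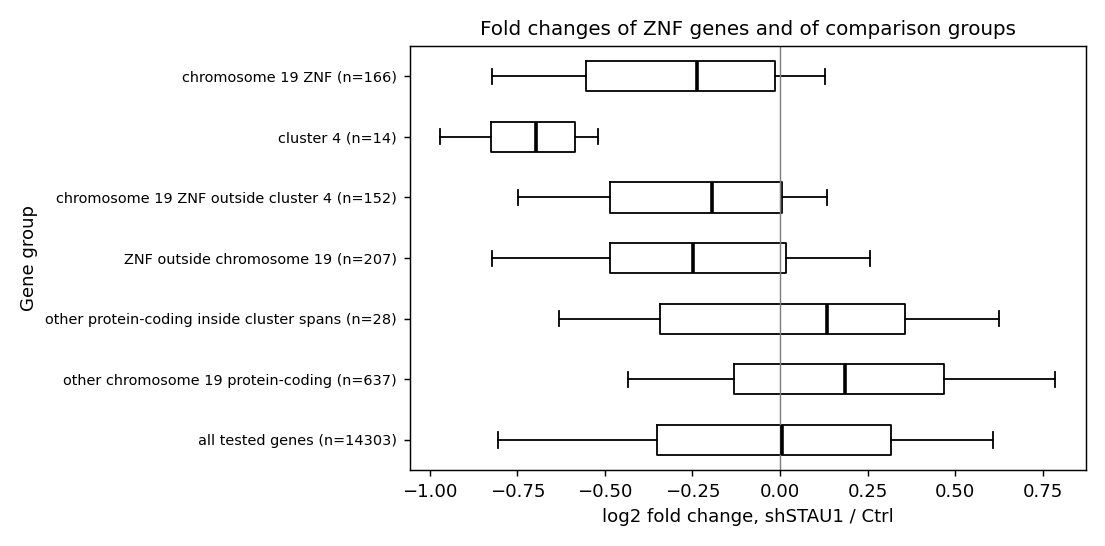
Boxes of the log2 fold change of shSTAU1 over Ctrl for tested genes of each group, with the median as a thick line, quartiles as box ends and the 10th and 90th percentiles as whiskers. The chromosome 19 ZNF genes (median -0.24) and the ZNF genes elsewhere (-0.25) lie to the left of the other chromosome 19 genes (0.18), with cluster 4 (-0.70) farthest left.

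The members were placed in clusters wherever 5 or more of them lay without a gap of over 500 kb, which gave 10 clusters, numbered from the short arm end, and 14 isolated genes. All 10 medians were below 0, but their size differed along the chromosome. Cluster 4, at chr19:19668796-24129961 next to the centromere, had the lowest median log2 fold change of the 10, at -0.70, and held 6 of the 11 genes called lower. All 14 of its tested members had negative values, from -3.25 to -0.0045, where -3.25 was that of ZNF726, a gene of few reads. In 11 of these 14 both shSTAU1 libraries were below both Ctrl libraries, beside 28.0% of all tested genes. With no filter on low counts, 26 of 33 members of cluster 4 were negative. The 152 tested members outside cluster 4 had a median of -0.19, with 5 called lower (3.29%) and 113 negative (74.3%). The share called lower was 42.9% in cluster 4, where 37.8% of the members were tested, against 72.4% of those outside it. The tested members of cluster 4 were also more abundant, with a median of 13.4 CPM per kilobase of exon against 2.67 outside it. How far this level bears on the share called was not tested. Of all tested genes, 1.48% were called lower and 49.6% were negative. Clusters 7 and 3 had medians of -0.38 and -0.35, with 17 of 19 and 16 of 20 tested members negative. Without Ctrl replicate 1 the median of cluster 3 was -0.08. Clusters 5, 8, 10, 1 and 6 had medians of -0.24, -0.22, -0.19, -0.16 and -0.15, and clusters 9 and 2 lay near 0, at -0.03 and -0.02. The median of cluster 2 was -0.12 without shSTAU1 replicate 1 and -0.15 without shSTAU1 replicate 2. It was -0.005 without Ctrl replicate 1 and -0.006 without Ctrl replicate 2. The isolated genes had a median of -0.05 over 9 tested members. The medians of clusters 1, 2, 5 and 9 changed sign under at least 1 other setting or when a library was left out. The median of cluster 9 was -0.19 when clusters were cut at gaps of 250 kb. At gaps of 1000 kb cluster 9 was joined with cluster 10, and the median of the 2 together was -0.19. The median of cluster 6 was -0.04 with length and GC offsets, -0.04 without Ctrl replicate 2 and -0.25 without Ctrl replicate 1. No order is therefore drawn among the clusters other than cluster 4.

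**Figure D2:**
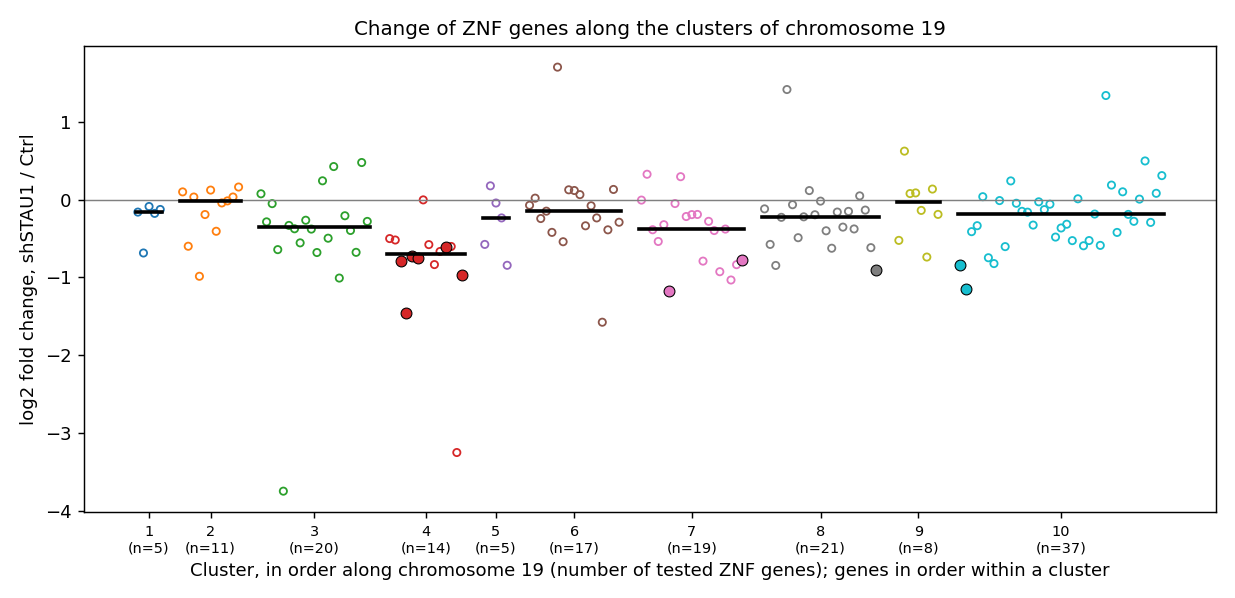
Log2 fold change of shSTAU1 over Ctrl for each tested member, in order along chromosome 19 within each cluster, with the cluster median as a bar and filled points for the 11 genes called lower. Cluster 4 has no point above 0 and 6 of the filled points, while clusters 2 and 9 lie around 0.

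In cluster 4 the lower level was shared by the abundant genes. The cluster's summed level was 2531 and 2693 CPM in Ctrl and 1579 and 1437 CPM in shSTAU1. It made up 39.9% and 40.3% of the level of all members in Ctrl and 33.2% and 30.8% in shSTAU1. ZNF91, a repressor of SVA retrotransposons, carried between 34.4% and 40.9% of the cluster's level in each library. Per kilobase of exon it was the most abundant member of all, at 89.2 CPM in Ctrl and 56.1 in shSTAU1. It was at 928.0 and 926.9 CPM in Ctrl and at 645.4 and 522.0 in shSTAU1. These groups did not overlap, and the log2 fold change was -0.67 (SE 0.14), with an adjusted p of 0.0535 by edgeR that just missed the threshold. For ZNF91 edgeR gave an adjusted p of 0.0478 with library size scaling and 1.89e-08 with the replicate block, a fit with 1 residual degree of freedom. DESeq2 gave it an adjusted p of 0.00154 and limma-voom 0.0468, while edgeR gave 0.0777 with length and GC offsets, 0.122 with no filter, 0.490 without Ctrl replicate 1 and 0.239 without Ctrl replicate 2. It gave 4.05e-06 without shSTAU1 replicate 1 and 0.00524 without shSTAU1 replicate 2.

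ZNF714, at chr19:21082159-21125270, was the second most abundant per kilobase in Ctrl, though not in shSTAU1, and had the smallest adjusted p of the members. Its level was 379.6 and 471.2 CPM in Ctrl and 146.1 and 162.4 CPM in shSTAU1. The shSTAU1 libraries were at 36.3% of the Ctrl level, with a log2 fold change of -1.46 (SE 0.15, adjusted p = 0.0132 by edgeR). Its transcript holds the finger pattern 12 times and the KRAB pattern defined below in neither form.

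ZNF430, ZNF431 and ZNF708 lie beside ZNF714, and the 4 genes span 308.8 kb. ZNF430 was at 145.6 and 157.4 CPM in Ctrl and 85.7 and 88.9 in shSTAU1. ZNF431 was at 291.6 and 282.3 CPM in Ctrl and 183.0 and 164.5 in shSTAU1. ZNF708 was at 139.4 and 166.6 CPM in Ctrl and 97.9 and 84.1 in shSTAU1. In none of the 3 did the groups overlap. Their log2 fold changes were -0.79 (SE 0.13), -0.72 (SE 0.13) and -0.75 (SE 0.15), with adjusted p of 0.0358, 0.0360 and 0.0489 by edgeR.

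ZNF675 and ZNF254 lie at the centromeric end of the cluster. ZNF675, also known as an inhibitor of TRAF6 signalling, was at 334.1 and 310.1 CPM in Ctrl and 211.5 and 211.0 in shSTAU1 (log2 fold change -0.61, SE 0.12, adjusted p = 0.0480 by edgeR). ZNF254, the last member of the cluster, was at 150.9 and 161.1 CPM in Ctrl and 81.3 and 77.9 in shSTAU1 (log2 fold change -0.97, SE 0.13, adjusted p = 0.0273 by edgeR). In both genes the groups did not overlap, and up to ZNF254 the called genes of the cluster span 3109 kb.

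ZNF724, ZNF681, ZNF101, ZNF14 and ZNF493 did not pass the threshold, with log2 fold changes between -0.84 and -0.50. ZNF724 was at 30.4 and 38.3 CPM in Ctrl and 19.1 and 19.3 in shSTAU1 (adjusted p = 0.0536 by edgeR), and 55.6% of the 50-base words of its exons also occur in other genes, so its reads may be shared. ZNF726 had the largest fold of the cluster on few reads, 20 and 45 counts in Ctrl against 4 and 3 in shSTAU1. Its ratio of Ctrl to shSTAU1 was 9.82, with a counting interval of 4.50 to 25.4 (95%, counting error only), and its adjusted p was 0.0613 by edgeR. ZNF726 could pass the filter on low counts only through Ctrl, where it was higher, so the filter favoured a fall. ZNF738 had the smallest change of the tested members of the cluster, a log2 fold change of -0.0045. It was at 14.5 and 13.1 CPM in Ctrl and 15.2 and 12.4 in shSTAU1. Its groups overlapped, as did those of ZNF14 and ZNF493. The annotated coding sequence of ZNF738 holds neither the finger pattern nor the word AGAGAAA. The other 23 members of cluster 4 stayed below the filter, among them ZNF93, a repressor of L1 retrotransposons, with 1 and 2 counts in Ctrl and 2 and 0 in shSTAU1. The span held 2 other protein-coding genes, both without a read and both with the KRAB pattern, so cluster 4 offers no neighbour of another family for comparison.

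**Figure D3:**
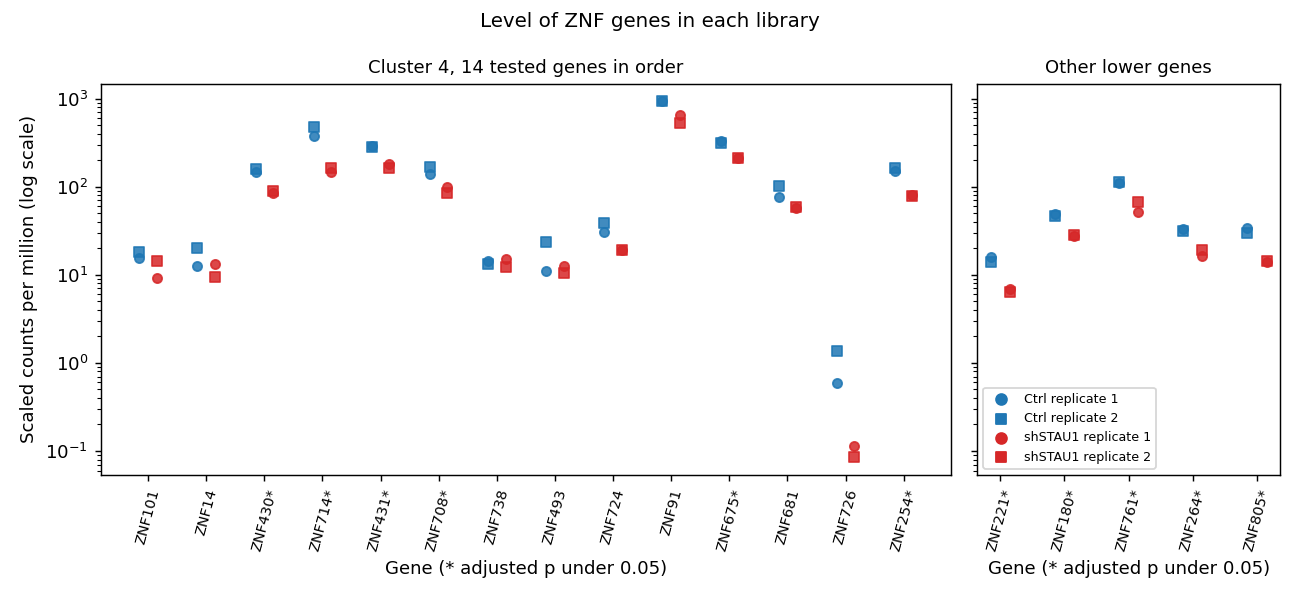
Level of each tested gene of cluster 4, in order, and of the 5 other genes called lower, as TMM-scaled CPM on a log axis, with 1 symbol per library. Apart from ZNF14, ZNF738 and ZNF493, both shSTAU1 libraries of every gene shown lie below both Ctrl libraries.

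A total of 5 of the 152 tested members outside cluster 4 were called lower, or 3.29%, beside 1.48% of all tested genes. Cluster 7, at chr19:43525497-44500524, held ZNF221 and ZNF180. ZNF221 was at 15.94 and 13.96 CPM in Ctrl and 6.92 and 6.34 in shSTAU1, a log2 fold change of -1.17 (SE 0.21, adjusted p = 0.0364 by edgeR). ZNF180, the most abundant gene of the cluster per kilobase, was at 48.4 and 46.6 CPM in Ctrl and 27.4 and 28.0 in shSTAU1 (log2 fold change -0.78, SE 0.14, adjusted p = 0.0376 by edgeR). The genes beside ZNF221 had other values. ZNF155 and ZNF230, which follow ZNF221 on the chromosome, had log2 fold changes of -0.05 and 0.29. ZNF224, a repressor of the aldolase A gene, was at -0.19.

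Cluster 10 began with ZNF264 and ZNF805, neighbours that were both called lower. ZNF264 was at 32.7 and 31.1 CPM in Ctrl and 16.3 and 19.3 in shSTAU1, and ZNF805 was at 34.0 and 29.7 CPM in Ctrl and 14.1 and 14.5 in shSTAU1. Their log2 fold changes were -0.84 (SE 0.17, adjusted p = 0.0489 by edgeR) and -1.16 (SE 0.17, adjusted p = 0.0328). Of the 50-base words of ZNF805, 10.0% occur in other genes, with ZNF264 the gene that shares the most, so the values of this pair are not fully separate. The next gene, ZNF460, was the most abundant of the cluster per kilobase, and its log2 fold change was -0.41 (adjusted p = 0.146 by edgeR). ZNF274, which is known to bring SETDB1 to the zinc finger genes themselves, was at -0.19 (adjusted p = 0.647). ZNF418 had the largest change of the cluster, a log2 fold change of 1.34 (adjusted p = 0.226), which rested on 107 counts in 1 shSTAU1 library against 32 in the other and 24 and 28 in Ctrl.

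In cluster 8, ZNF761 was at 108.8 and 114.3 CPM in Ctrl and 51.4 and 67.7 in shSTAU1. Its log2 fold change was -0.91 (SE 0.16, adjusted p = 0.0375 by edgeR), and 10.1% of its 50-base words occur in other genes. The exons of ZNF761, ZNF431 and ZNF254 each overlap those of another annotated gene on the same strand, and how reads in such overlaps were counted is not given in the sources used here. The most abundant gene of the cluster per kilobase, ZNF845, had a log2 fold change of -0.14 (adjusted p = 0.643). ZNF614 had the largest change in the cluster, at 10 and 23 counts in Ctrl and 30 and 64 in shSTAU1 (log2 fold change 1.42, adjusted p = 0.215).

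Clusters 1, 2, 3, 5, 6 and 9 held none of the genes called by edgeR, while 3 members of cluster 2, 5 of cluster 3 and 1 each of clusters 5, 6 and 9 were lower at an unadjusted p under 0.05, beside 11.6% of all tested genes. The lowest adjusted p were those of ZNF491 and ZNF700 in cluster 3 and of ZNF699 in cluster 2. ZNF491 had 21 and 58 counts in Ctrl and 3 and 3 in shSTAU1, with an adjusted p of 0.0534 by edgeR. Its ratio of Ctrl to shSTAU1 was 13.9, with a counting interval of 6.12 to 39.1 (95%, counting error only). ZNF491 could pass the filter on low counts only through Ctrl, where it was higher, so the filter favoured a fall. ZNF700, the most abundant gene of cluster 3 per kilobase, was at 128.4 and 125.7 CPM in Ctrl and 85.4 and 87.3 in shSTAU1 (log2 fold change -0.56, SE 0.12, adjusted p = 0.0596), with 20.4% of its words shared. ZNF699 was at 19.7 and 17.6 CPM in Ctrl and 10.8 and 8.06 in shSTAU1 (log2 fold change -0.99, SE 0.22, adjusted p = 0.0570). None of the 3 overlapped between the groups. DESeq2 called ZNF699 (adjusted p = 0.00266) and ZNF700 (0.0105), edgeR with library size scaling called ZNF700 (0.0479), and edgeR with the replicate block called all 3.

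The most abundant genes of several clusters stood close to their control level. ZNF121 in cluster 2 was at 110.3 and 104.1 CPM in Ctrl and 96.5 and 111.5 in shSTAU1. ZNF146 in cluster 6, which encodes a protein of fingers with little else, was at 94.2 and 104.2 CPM in Ctrl and 94.8 and 106.0 in shSTAU1. ZNF57 in cluster 1 was at 21.0 and 14.2 CPM in Ctrl and 18.2 and 12.9 in shSTAU1. In these 3 genes the groups overlapped. ZNF302 in cluster 5 and ZNF787 in cluster 9 had log2 fold changes of -0.58 and -0.74, with adjusted p of 0.127 and 0.127. With the replicate block edgeR gave them 0.00845 and 0.00177, in a fit that called 4087 genes in all. The largest changes in clusters 1, 5 and 6, those of ZNF555 (-0.69), ZNF792 (-0.85) and ZNF461 (1.70), had adjusted p of 0.257, 0.363 and 0.358 by edgeR. With a library left out, their log2 fold changes ranged from -1.12 to -0.31, from -1.41 to -0.05 and from 0.73 to 7.47. ZNF461 rested on 13 and 0 counts in Ctrl against 22 and 23 in shSTAU1. It could not pass the filter on low counts through Ctrl alone and was higher in shSTAU1, so the filter favoured a rise.

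Genes of a list around the KRAB corepressor TRIM28, termed corepressor genes here, had log2 fold changes around and above 0. The list held TRIM28, SETDB1, HP1 genes, histone deacetylase genes, other chromatin and DNA methylation genes, and ZFP57, a zinc finger gene. Of its 27 genes, 25 were tested, 19 had a positive log2 fold change and the median was 0.10. None was called by edgeR as used for the main values, while edgeR called 1 with length and GC offsets and 7 with the replicate block, DESeq2 called 2 and limma-voom 1. Over all genes these fits called 332, 4087, 1449 and 363, so the counts have to be read beside these numbers. At an unadjusted p under 0.05, 5 of the 25 were higher, beside 12.9% of all tested genes. TRIM28 was at 211.3 and 269.2 CPM in Ctrl and 228.9 and 349.5 in shSTAU1 (log2 fold change 0.27, SE 0.22, adjusted p = 0.475 by edgeR), and its log2 fold change was -0.08 without shSTAU1 replicate 2 and 0.55 without shSTAU1 replicate 1, where its adjusted p was 0.00267. SETDB1 was at 53.7 and 56.8 CPM in Ctrl and 50.3 and 43.8 in shSTAU1 (log2 fold change -0.23, SE 0.14, adjusted p = 0.356). Over all 4 libraries neither gene passed the threshold. The histone deacetylase gene HDAC2 had the largest log2 fold change of the list, at 0.57 (adjusted p = 0.0522), and the HP1 gene CBX3 was at 0.54 (adjusted p = 0.0766). DAXX had between 0 and 2 counts per library and stayed below the filter. Whether such a low count means that a gene was silent cannot be told from these counts.

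The symbol ZNF is given to genes that encode zinc fingers, so the finger pattern was fixed by the choice of genes. The codon pattern of a finger (2 cysteine codons, 12 codons, then 2 histidine codons) occurred in 246 of the 247 members, beside 1.60% of protein-coding genes without a ZNF-number symbol. A codon pattern of the KRAB A box with its usual tryptophan occurred in 185 members, or 74.9%, beside 0.247% of those genes, and a form with leucine in that place occurred in 17 more. The linker codons occurred in 85.8% of members, beside 0.670%, and AGAGAAA on the coding strand in 83.0%, beside 25.4% of those genes and 26.6% of all protein-coding genes. Such matches describe the letters and not a site.

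The median log2 fold change was -0.29 in the 124 tested members with the tryptophan form, -0.35 in the 14 with the leucine form and 0.05 in the 28 with neither. It was -0.01 in the 30 members without a copy of AGAGAAA in the coding sequence, -0.16 in the 68 with 1 to 4 copies, -0.35 in the 46 with 5 to 9 copies and -0.57 in the 22 with 10 or more. Members with more copies also had transcripts poorer in GC, with a median GC content of 53.4% at 0 copies and 40.0% at 10 or more, and more fingers bring more linkers. The features move together, and their parts in the result were not tested. Across the 166 genes, which share libraries and ancestry, Spearman's rho with the log2 fold change was 0.35 for GC content, -0.33 for copies of the word and -0.24 for the number of fingers.

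When the tested members were split into 3 groups by GC content, the median log2 fold change was -0.38 in the 56 of lowest GC (33.5% to 41.7%), -0.33 in the middle group and -0.05 in the highest. Within the lowest group, the 13 genes of cluster 4 had a median of -0.72 and the 43 others -0.27. Within the same group, the 40 genes with 5 or more copies of the word had a median of -0.53 and the 16 with fewer -0.26, where the former include most of cluster 4. In the middle group these medians were closer, at -0.38 for 25 genes and -0.29 for 30, and in the highest they were -0.13 for 3 genes and -0.05 for 52. The 2443 tested protein-coding genes of the same GC range without a ZNF-number symbol had a median of 0.03. Protein-coding genes without such a symbol had medians of 0.08, -0.01 and -0.13 at 0, 1 to 4 and 5 or more copies. Their median GC content fell likewise, from 51.7% to 44.8% and 41.9%, so here too copies and GC content moved together. By level per kilobase the medians were -0.14, -0.24 and -0.34 from the lowest to the highest of 3 groups, and 9 of the 11 called genes were in the highest group. The 41 members with 10% or more of their 50-base words in other genes had a median of -0.29 and the 125 others -0.23.

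**Figure D4:**
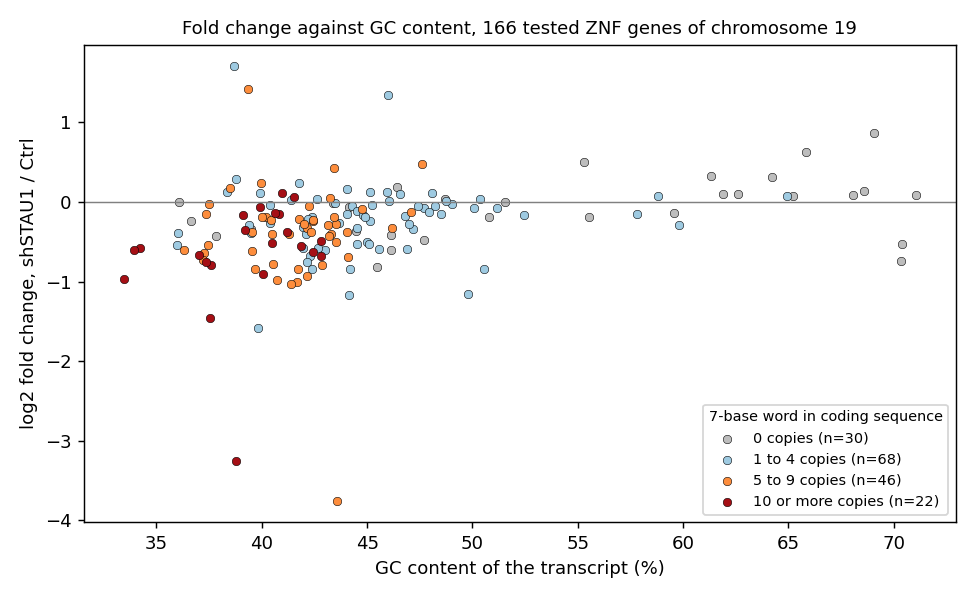
Log2 fold change of shSTAU1 over Ctrl against the GC content of the transcript for the 166 tested members, coloured by the copies of AGAGAAA in the coding sequence. Genes with 10 or more copies lie at low GC and mostly below 0, and genes without a copy spread over the whole GC range around 0.

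When each library's trend with transcript length and GC content was removed by offsets, the median of the tested members was -0.20 and that of cluster 4 was -0.55. The median over all tested genes also moved, to 0.061 from 0.0059 without the offsets. With the offsets 116 of the 166 members were negative, and 6 were called lower, all among the 11. Over all genes that fit called 332 in either direction, against 372 without the offsets. In cluster 4, 13 of 14 were negative and 3 were called.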

How the data were processed

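RNA of SAS cells was sequenced after exome capture (TruSeq RNA Exome), 2 libraries per group. The authors deposited a table of unnormalized read counts, all whole numbers. The submitters' processing notes name Partek and hg38. The aligner, counting program, annotation release and strand setting are not given in the sources used here. Versioned gene identifiers were matched to GENCODE 29 on GRCh38 (58561 of 67008, with 99.9% of counts). Genes passing filterByExpr were tested with edgeR 4.0.16 (R 4.3.3; TMM, quasi-likelihood test, Benjamini-Hochberg adjustment over 14303 genes, threshold 0.05). The biological coefficient of variation was 19.1%. A single gene compared over 2 against 2 libraries by permutation cannot go below p = 0.333. Replicates differed by more than sampling noise (the chi-square of their counts divided by its degrees of freedom was 23.4 in Ctrl and 56.4 in shSTAU1). The fits were tested on simulated data. Alternatives were DESeq2 1.42.0, limma-voom 3.58.1, library size scaling, no filter, a replicate block, length and GC offsets (mgcv 1.9.3), 2 other thresholds, other cluster gaps (250 and 1000 kb) and leaving out each library. The genes and lists were chosen with earlier results of these data known. Genes named by rule were STAU1, members past the threshold, the most abundant and the most changed member of each cluster, TRIM28 and SETDB1. The other genes named were chosen after their values were seen. Codon patterns and the word were searched in the coding strand of 1 transcript per gene. Some genes of the marker lists, which were left out of their sums, and 1 linker sequence are not reported here.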

Additional observations from a re-analysis of the deposited data

How the results depend on the processing

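The median log2 fold change of the tested members was negative in every alternative run (-0.31 to -0.18), as was that of cluster 4 (-0.84 to -0.55). The counts of calls moved far more. Members called lower numbered 11 in the main analysis, 27 with DESeq2 (including all 11), 0 with no filter on low counts (adjusted p 0.0514 to 0.124 for the 11), 6 with length and GC offsets, 29 at an adjusted p under 0.10, and 30 with a fold of 1.5 and an unadjusted p under 0.05, where 1 was higher. Leaving out each library gave 0 to 40 lower and 0 to 3 higher. Calls over all genes were 372, and 1449 with DESeq2, 11 with no filter, 1585 at 0.10, 2098 by fold and unadjusted p, and 0 to 2780 with a library left out. Genes of cluster 4 called lower were 6, and 0 with no filter, 3 with offsets, 10 at 0.10, 10 by fold and unadjusted p, and 0 to 12 with a library left out. Called corepressor genes were 0, and 2 with DESeq2, 1 with limma-voom, 1 with offsets, 2 at 0.10, and 0 to 8 with a library left out. STAU1 stayed between -2.60 and -2.58 when a library was left out.

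Both groups carry replicate numbers 1 and 2, but no label ties a number to a batch, and deviations of same-numbered libraries correlated at 0.27. With the replicate block, calls over all genes were 4087 (3883 with the offsets as well), members lower 53 (39) and higher 4 (4), cluster 4 lower 13 (10) and corepressors 7 (7). The fits with the block leave 1 residual degree of freedom, so their small p-values are to be read with caution. Among the genes named by rule, the block called some that the main analysis did not. They were ZNF91, ZNF302, ZNF460, ZNF461, ZNF491, ZNF555, ZNF614, ZNF699, ZNF700, ZNF726 and ZNF787.

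In an alternative chosen after seeing the data, leaving out genes with a finger or KRAB pattern gave medians of 0.16 for the other genes inside the spans and 0.19 for the other genes of chromosome 19. Several values changed sign, and the cause was not tested. Median log2 fold changes with offsets were 0.068 for cluster 2 (0.065 with block and offsets), with no filter 0.069 for cluster 9, -0.10 for other genes inside the spans and -0.072 for all genes, and by library size -0.046 for all genes. With a library left out they ranged from -0.44 to 0.048 for cluster 1, -0.47 to 0.047 for cluster 5, -0.27 to 0.10 for cluster 9, -0.056 to 0.14 for other genes inside the spans and -0.036 to 0.019 for all genes. ZNF121 was at 0.086 with offsets and 0.083 with block and offsets, and ZNF146 at -0.035 by library size. With a library left out, ZNF121 ranged from -0.16 to 0.067, ZNF146 from -0.075 to 0.11, ZNF57 from -0.44 to 0.13, ZNF845 from -0.36 to 0.063 and TRIM28 from -0.080 to 0.55. Among 390 values of named genes under alternatives, 286 kept direction and side of the threshold, 38 lost the call, 56 gained it and 10 changed sign.

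With 2 libraries per group and adjusted p of the 11 genes between 0.0132 and 0.0489, their number is not well determined. Their groups do not overlap, so their direction could not change when a library was left out.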
